A study of Mus musculus with 4 samples.

Results

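Gata4 ChIP-seq peaks were examined at 9 mouse genes that write, copy, remove or read DNA methylation: *Dnmt1*, *Uhrf1*, *Dnmt3a*, *Dnmt3b*, *Dnmt3l*, *Tet1*, *Tet2*, *Tet3* and *Mbd2*. A peak was taken when the authors' list named one of these genes for it, or when it lay within 20 kb of the gene on the mm9 genome. The rule gave 35 peaks of 43143, 10 from WT Flk1(+) cells and 25 from DKO Flk1(+) cells. The 2 peak lists came from 4 libraries with 1 library per condition. WT cells were of the J1 line with a 129 background, and DKO cells, of the same parental line, were Dnmt3a-/-Dnmt3b-/-. All 4 samples expressed Gata4GR, a fusion of Gata4 with the glucocorticoid receptor ligand-binding domain driven by the CAG promoter. Each Flk1(+) sample came from 1 clone, labelled J1G4.2 for WT and 16G4.3 for DKO, and the ES labels give no clone. ES cells were grown on OP9 stroma to day 4.5, given 100 nM dexamethasone (Dex) for 3 h, and sorted for Flk1, a receptor of lateral mesoderm and vascular progenitors. The ES library of each genotype, undifferentiated and without Dex but carrying the same transgene, was the background of the peak call. DKO ES cells carried the same lesions as DKO Flk1(+) cells, so each list contrasts differentiated, Dex-treated cells with ES cells and neither contrasts the genotypes. Peak lists hold no expression values, so the Flk1(+) label could not be checked against marker genes, and a peak says nothing of whether the gene was transcribed. With no replicate, no comparison between the lists was tested against the spread between libraries.

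DNA methylation in mammals sits mainly on the cytosine of CpG pairs. Dnmt3a and Dnmt3b place it de novo, with Dnmt3l as a cofactor that has no catalytic activity, and Dnmt1 copies it to the new strand after replication, guided by Uhrf1, which binds hemimethylated DNA. The Tet enzymes oxidise 5-methylcytosine, which opens a route to its removal, and Mbd2 binds methylated CpGs and recruits the NuRD repressor complex. Gata4 is a zinc finger factor of endoderm and cardiac mesoderm that recognises the motif WGATAA, where W is A or T. *Dnmt3a* and *Dnmt3b* are thus both loci examined here and the genes disrupted in DKO cells. The labels do not say which bases are missing from these alleles, and over missing DNA a lack of peaks cannot be told apart from a lack of binding.

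Among the member peaks were CpG-poor intron sequences with the motif and sequences near gene starts without it. To show both kinds, 6 windows are printed, each from the mm9 plus strand and centred on the listed position. The first 3, of 201 bp, come from intron peaks that held the motif, with each match to WGATAA on either strand in capitals. They lie at chr10:62317808-62318008 in *Tet1*, chr6:83371808-83372008 in *Tet3* and chr12:3888049-3888249 in *Dnmt3a*.
Tet1 intron, WT peak: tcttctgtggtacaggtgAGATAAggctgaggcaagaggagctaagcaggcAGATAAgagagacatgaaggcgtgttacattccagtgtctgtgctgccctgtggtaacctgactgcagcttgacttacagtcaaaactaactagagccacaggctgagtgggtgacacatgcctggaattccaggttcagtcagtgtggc
Tet3 intron, WT peak: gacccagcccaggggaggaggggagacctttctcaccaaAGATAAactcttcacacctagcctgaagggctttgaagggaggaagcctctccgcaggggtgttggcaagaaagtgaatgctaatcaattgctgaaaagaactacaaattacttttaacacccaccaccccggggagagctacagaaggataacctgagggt
Dnmt3a intron, DKO peak: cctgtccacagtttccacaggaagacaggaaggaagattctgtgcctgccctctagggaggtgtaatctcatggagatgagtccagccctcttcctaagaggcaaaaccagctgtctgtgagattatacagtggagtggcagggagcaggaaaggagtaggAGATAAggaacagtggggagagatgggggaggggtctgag
The other 3, of 101 bp, come from peaks near gene starts that held no match to WGATAA, with each CpG in capitals. They lie at chr17:56443574-56443674 in *Uhrf1*, chr9:20757333-20757433 at *Dnmt1* and chr6:83390848-83390948 in *Tet3*.
Uhrf1 start, WT peak: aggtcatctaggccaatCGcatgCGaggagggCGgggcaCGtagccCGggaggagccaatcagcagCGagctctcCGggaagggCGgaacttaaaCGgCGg
Dnmt1 start, DKO peak: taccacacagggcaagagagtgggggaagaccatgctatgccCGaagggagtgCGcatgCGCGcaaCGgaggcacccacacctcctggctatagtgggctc
Tet3 start, DKO peak: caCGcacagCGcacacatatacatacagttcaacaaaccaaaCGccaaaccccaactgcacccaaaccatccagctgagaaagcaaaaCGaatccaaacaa
The *Tet1* window held 2 matches and the *Tet3* and *Dnmt3a* intron windows 1 each, beside 1, 2 and 0 CpGs. The *Uhrf1* window held 10 CpGs in 101 bp, against 5 in that of *Dnmt1* and 4 in that of *Tet3*. None of the 6 windows overlaps coding sequence.

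Peaks lay within 5 kb of 4 of the 9 genes in WT Flk1(+) cells (*Uhrf1*, *Tet1*, *Tet3* and *Mbd2*) and of 6 in DKO Flk1(+) cells, the same 4 with *Dnmt1* and *Dnmt3a*. *Dnmt3b*, *Dnmt3l* and *Tet2* had none within 5 kb in either list. Of 22217 protein-coding genes, 39.4% had a WT peak and 49.1% a DKO peak within 5 kb, and among the 7499 genes whose length lies in the range of the members these shares were 48.8% and 60.8%. The members' counts therefore sat near the background. Within 20 kb 6 members had a WT and 6 a DKO peak, beside 52.5% and 59.9% of all genes and 60.0% and 70.1% of those of like length. Of all peaks, 75.3% of the WT and 86.7% of the DKO list lay within 20 kb of a protein-coding gene. No member had a WT peak alone, against 7.52% of genes (9.35% of those of like length), and 2 had a DKO peak alone, against 17.2% (21.3%). The 4 with peaks in both lists compare with 31.9% of genes (39.5%), and the 3 with peaks in neither with 43.4% (29.8%). Only 2 genes had a WT peak within 5 kb of an annotated transcription start site, *Uhrf1* and *Tet3*, since the *Tet1* and *Mbd2* peaks lay deep in introns. Counted by place, with peaks within 500 bp of each other taken as 1, there were 23 places. Of these, 4 held peaks of both lists, 5 WT peaks alone and 14 DKO peaks alone. Places were not counted over the whole lists, so these counts have no background to be read against.

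**Figure D1:**
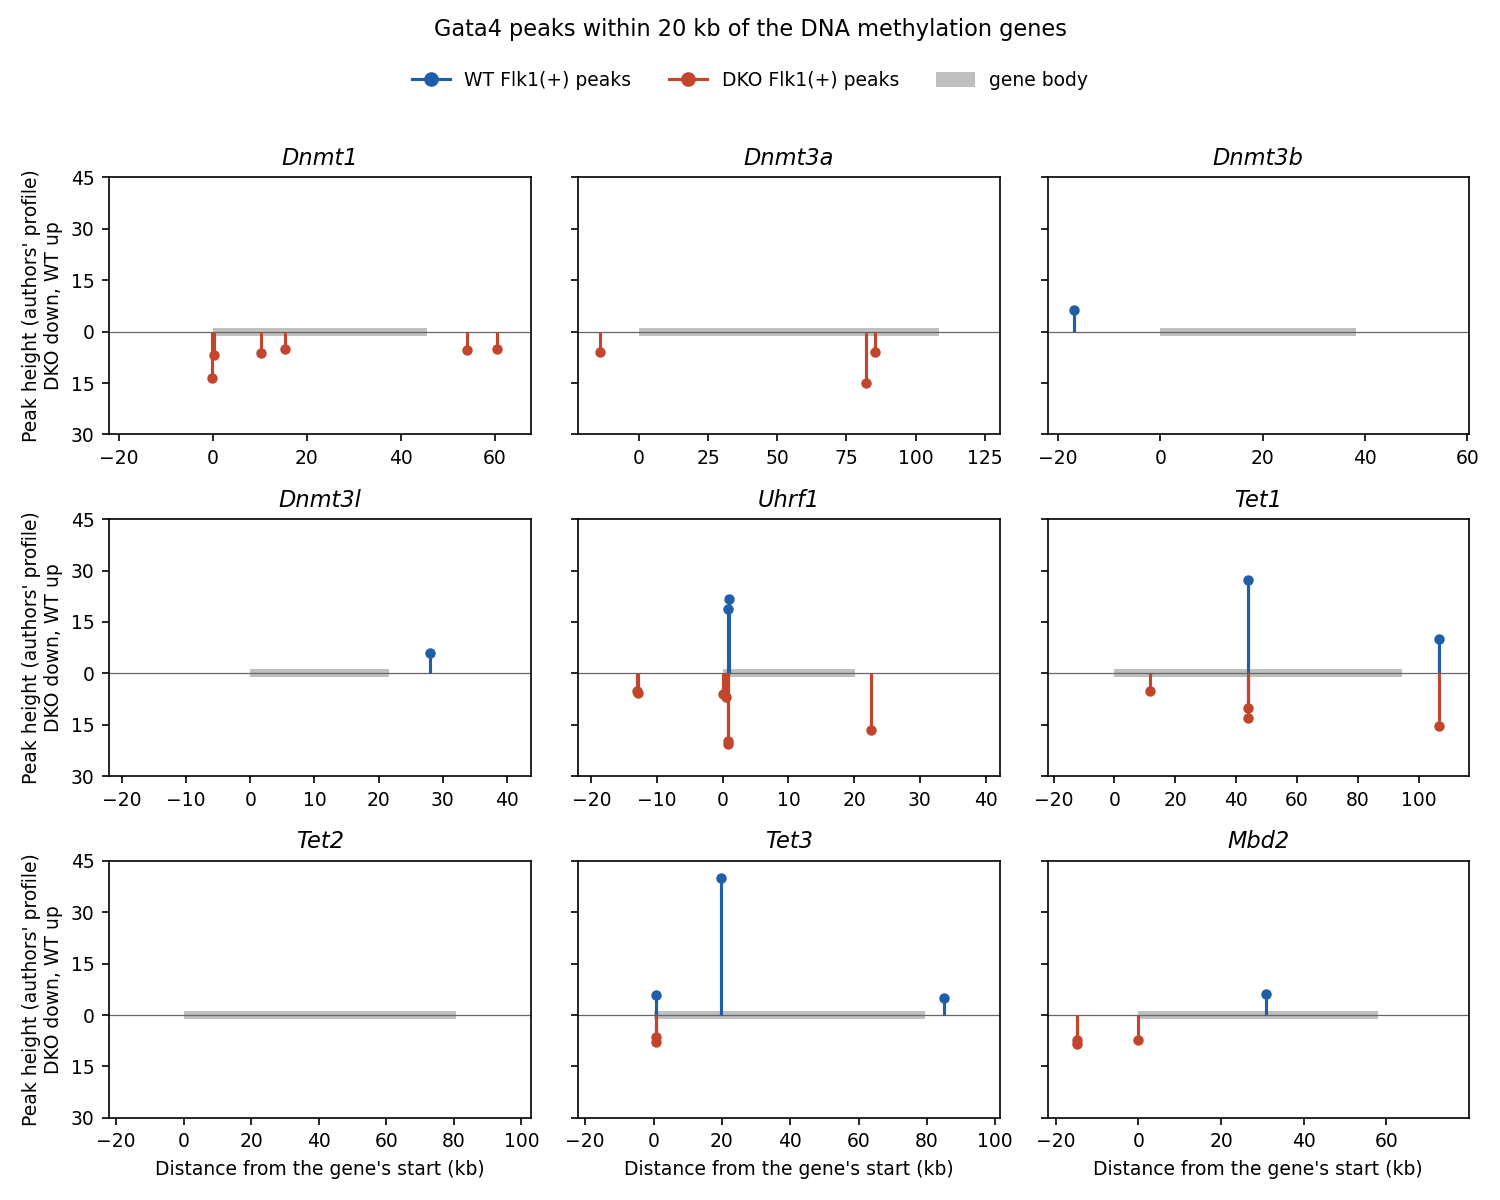
Peaks within 20 kb of each gene, with distance from the annotated start of the gene in kb on the horizontal axis and peak height in the authors' profile (WT up, DKO down) on the vertical axis. The grey bar is the gene body. *Dnmt1* and *Dnmt3a* carry DKO peaks alone, *Tet2* none, and the highest peak is the WT peak of height 40.1 in *Tet3*.

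A height here is that of the authors' smoothed read profile at the peak, and the ES background is the same measure at that position in ES cells of the same genotype. The sources do not say whether heights were scaled for depth, the files hold no read totals, and the study gives more mapped reads for the DKO than for the WT Flk1(+) library and no total for the ES libraries. Heights were therefore compared between lists only against the shift seen over all paired peaks. A peak had to reach a height of 5 and 3 times its ES background. Heights of the WT member peaks ran from 5.00 to 40.1 with a median of 8.14, beside a median of 7.74 over all 20410 WT peaks. Those of the DKO member peaks ran from 5.03 to 20.5 with a median of 6.90, beside 6.91 over all 22733. Member peaks were thus of ordinary height in both lists. Heights under 6 were found at 2 WT and 8 DKO member peaks, against 23.9% and 32.1% of the lists. ES background at the member peaks had a median of 2.34 in WT (0.716 to 8.69) and 1.68 in DKO (0.208 to 5.28), against 1.68 and 1.58 over the lists. The tallest member peaks stood on some of the highest ES background, as the plot of height against background shows.

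**Figure D2:**
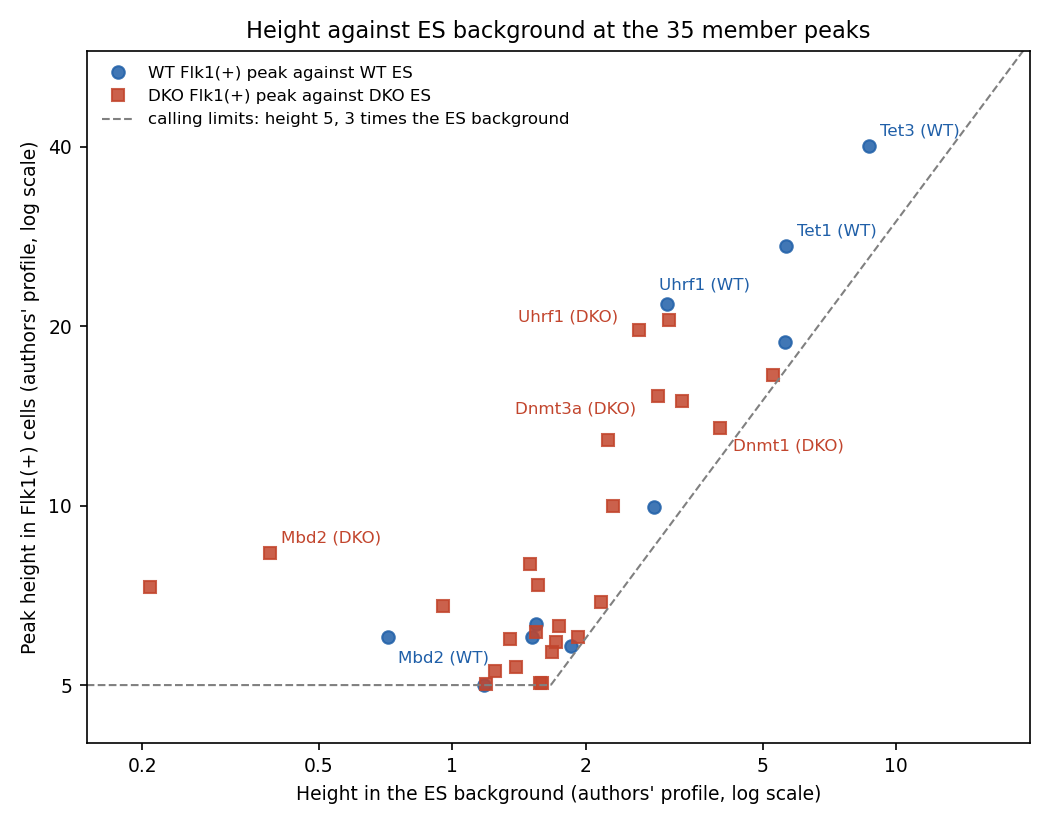
Peak height in Flk1(+) cells against the height in ES cells of the same genotype for the 35 peaks, both on log axes in units of the authors' profile. Points are peaks (circles WT, squares DKO) and the dashed line marks the calling limits, a height of 5 and 3 times the background. The *Tet3* and *Tet1* WT peaks lie at the upper right, with background of 8.69 and 5.66, and 3 of the 4 *Mbd2* peaks at the left, with background under 1.

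*Dnmt1*, which encodes the maintenance methyltransferase, spans chr9:20711650-20757317 on the minus strand and had 6 peaks within 20 kb in the DKO list and none in the WT list. The highest, at chr9:20757383, lay 66 bp upstream of the start, with a height of 13.5 against an ES background of 4.01, a 3.36-fold enrichment just over the calling limit. Its height was at the 91.5th percentile of the DKO list and its background at the 96.8th. A second, at chr9:20756936, lay in intron 1 with a height of 6.90 over 2.16. The deposited windows, 250 bp to either side of the position, held 33 and 34 CpGs at these 2 peaks and no WGATAA, as in the *Dnmt1* start sequence printed above. In intron 2 a peak of 6.15 over 1.54 at chr9:20746913 covered a 36-bp run of a short repeated unit. A peak of 5.04 over 1.59 in intron 6, at chr9:20741878, had 1 motif match and 77.0% of its window masked as repeat. The remaining 2 belonged by position to neighbours, 42 bp upstream of *Eif3g* (5.36 over 1.39) and 149 bp from *Ppan* (5.05 over 1.58). So 3 of the 6 stood close to the lowest height a peak could have. The nearest WT peak, at 20779988, was 22671 bp from the gene, where the list names *S1pr2*, with a height of 27.3. A DKO peak lay at the same place, at 20779989, with a height of 15.4.

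*Uhrf1* encodes the factor that brings Dnmt1 to hemimethylated CpGs, and it was the only member with peaks of both lists within 1 kb of its start whose heights passed 10. The gene spans chr17:56442744-56462909 on the plus strand, with further transcript starts that include 56442823 and 56443736. The WT list gave peaks at 56443463 (18.8 over 5.61) and 56443624 (21.8 over 3.05). The DKO list gave peaks at 56443470 (20.5 over 3.07) and 56443606 (19.7 over 2.63), within 7 bp and 18 bp of them. The 4 positions lie in intron 1, between 719 and 880 bp after the first start, and upstream of the start at 56443736. Their windows held 49 or 50 CpGs, the most of any member, and no WGATAA. The lists also name *Arrdc5* for these peaks. A lower DKO peak at 56443242 (6.79 over 0.951, 39 CpGs) overlapped the same WT peak, and 1 at 56442703 (5.91 over 1.71, 20 CpGs) sat 41 bp upstream of the start, 760 bp from the nearest WT peak.

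Outside *Uhrf1*, a DKO peak at chr17:56465248 lay 2339 bp past its end and 237 bp upstream of *Kdm4b*, a histone demethylase gene. Its height was 16.6 over an ES background of 5.28, and that background was at the 99.0th percentile of the list. Another 2 DKO peaks lay in an intron of *Plin3*, which encodes a lipid droplet protein, 72 and 304 bp after its start, with heights of 5.68 and 5.03. None of these 3 overlapped a WT peak. No *Uhrf1* peak of either list, 9 in all, held WGATAA, although the gene body has 10 matches, 1 per 2017 bp.

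*Dnmt3a*, a de novo methyltransferase gene and 1 of the pair disrupted in DKO cells, spans chr12:3806007-3914443 on the plus strand and had 3 DKO peaks and no WT peak within 20 kb. The highest, at chr12:3888149 in intron 6, reached 15.0 over an ES background of 3.30, a 4.56-fold enrichment. It stood at the 94.1st percentile of height and the 93.4th of background. Its window had 3 CpGs and 1 WGATAA, 63.5 bp from the centre, which is the match in capitals in the *Dnmt3a* sequence above. A second, at chr12:3891471, lay just upstream of an internal start at 3891728 and reached 5.98 over 1.35, with 32 CpGs and no motif match. The third, at chr12:3791923, lay 14084 bp upstream of the gene with 6.03 over 1.92, and its window covered a 24-bp repeated run. No peak fell at the CpG-rich starts near 3807030, where a window of the same length holds 81 CpGs. The nearest WT peak was 67051 bp from the gene, with a height of 7.52. These peaks are no check of the knockout, since the lists hold neither coverage nor the positions of the deleted bases.

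*Dnmt3b*, the other gene disrupted in DKO cells, and *Dnmt3l*, the gene of the inactive cofactor, had no peak within 5 kb in either list. For *Dnmt3b* (chr2:153475186-153513466) the nearest WT peak lay 16785 bp upstream, in a coding exon of *Commd7*, with 6.33 over 1.54 and 40 CpGs. The nearest DKO peak was 23645 bp away, beyond the limit, with a height of 7.57. A window at the *Dnmt3b* start holds 68 CpGs, and no peak of either list lay there. For *Dnmt3l* (chr10:77504692-77526367) a WT peak lay 6283 bp past the gene in an intron of *Icosl*, an immune costimulatory ligand gene, with 6.02 over 1.51 and 23 CpGs. The nearest DKO peak to *Dnmt3l* was 31932 bp away. Neither WT peak held WGATAA or overlapped a DKO peak.

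*Tet1*, the gene of an oxidising enzyme that is abundant in ES cells, had in intron 3 the only place where both lists had a motif-bearing member peak. The gene spans chr10:62267318-62361866 on the minus strand, and the place lies 43958 bp after its start. The WT peak at 62317908 reached 27.3 over an ES background of 5.66, at the 97.1st percentile of height and the 97.9th of background. The DKO list gave 2 peaks there, at 62317935 (12.9 over 2.24) and 62317806 (10.0 over 2.30). All 3 windows held 2 or 3 CpGs and 2 or 3 matches to WGATAA, and the 2 matches nearest the WT centre are those in capitals in the sequence above. Each window also covered a 52-bp run of a short repeated unit, of a kind found in 9.48% of WT and 8.39% of DKO windows. Among the member windows, some of which overlap, 3 of 10 WT and 6 of 25 DKO covered such a run.

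Of the other peaks near *Tet1*, 1 of each list lay at the start of the neighbour *Ccar1*, which encodes a cell cycle and apoptosis regulator. The WT peak at 62255111 reached 9.95 over 2.84 and the DKO peak at 62255195 reached 15.3 over 2.91, with 48 and 44 CpGs and no motif match. A DKO peak of 5.28 over 1.25 in intron 1, at 62350074, had 31 CpGs, no match, and no gene name in the list. An internal start of *Tet1*, at 62342762, lies downstream of it, and no peak fell within 5 kb of any *Tet1* start.

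*Tet2*, a Tet gene with roles in blood cells, had no peak within 20 kb in either list. The gene spans chr3:133126643-133207354 and its body holds 102 matches to WGATAA, the most of the 9 genes, at 1 per 791 bp. A window at its start has 69 CpGs. The nearest DKO peak was 79145 bp away (height 5.80) and the nearest WT peak 214072 bp away (height 11.1). *Uhrf1*, with 10 matches in its body, had the most listed peaks, 2 WT and 7 DKO. Several of these lay close together or at neighbouring genes. Whether peak number follows the number of motif matches was not tested.

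*Tet3*, the Tet gene expressed from the oocyte onward, spans chr6:83312367-83391672 on the minus strand and held the highest member peak of either list. This WT peak, at 83371908 in intron 2, reached 40.1 over an ES background of 8.69, a 4.61-fold enrichment, at the 99.1st percentile of height and the 99.5th of background. Its window had 7 CpGs, 2 WGATAA matches and a 24-bp run of a short repeated unit. The nearest DKO peak was 18990 bp away, so no DKO value is known at this position. Near the start both lists had a peak, WT at 83390833 (5.81 over 1.85) and DKO at 83390898 (7.98, a 5.33-fold enrichment), with a further DKO peak at 83391073 (6.28 over 1.74). These had 14 to 23 CpGs and no WGATAA. The first 2 covered a 44-bp repeated run and the third a run of 20 bp. The WT peak was near the bottom of its list by the authors' score, ranked 20237 of 20410, while the DKO peak ranked 3183 of 22733. A WT peak at 83306615, 5752 bp past the gene in an intron of *Bola3*, had the lowest height of the WT member peaks, 5.00 over 1.18, and 2 matches.

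*Mbd2*, the reader of methylated CpGs, spans chr18:70727843-70785785 on the plus strand and had peaks in different places in the 2 lists. The WT peak at 70758736, in intron 3, reached 6.01 over an ES background of 0.716, with 3 CpGs and 2 WGATAA matches, the nearer 22.5 bp from the centre. The DKO list instead had a pair of peaks about 15 kb upstream, at 70712863 (7.30 over 0.208) and 70713033 (8.32 over 0.389), and 1 at 70727771 (7.36 over 1.56), 72 bp upstream of the start. The upstream pair lay 170 bp apart, so their windows overlap and hold matches in common. They held 4 matches each, the most of any member peak, with 1 match 0.5 bp from the centre of the second. Their ES background was at the 0.541st and 2.31st percentiles of the DKO list, the lowest of the members. The peak at the start had 37 CpGs and 1 match, 224.5 bp from the centre. None of the 4 overlapped a peak of the other list, and *Mbd2* was the only member with peaks of both lists within 20 kb and none shared.

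Peaks of the 2 lists were called shared when their deposited windows overlapped, that is when their positions lay within 500 bp. This held for 5 of the 10 WT member peaks, beside 45.6% of all WT peaks (95% Wilson interval 44.9% to 46.3%, counting error only), and for 8 of the 25 DKO member peaks, beside 45.1% (44.4% to 45.7%). With neighbouring peaks counted once, 4 of 9 WT places and 4 of 18 DKO places were shared, and no share by place was computed for the whole lists. Heights can be set side by side at the 5 WT peaks with a DKO partner. Over all 9305 such pairs the DKO height was a median 0.823 times the WT height, with quartiles of 0.597 and 1.06, and the ES background 0.708 times. At *Tet1* intron 3 the ratio was 0.473 in Flk1(+) cells, lower than in all but 13.7% of pairs, and the ES background ratio there was 0.395. The *Uhrf1* pairs gave 1.09 and 0.900, against 0.547 and 0.864 in ES. The *Ccar1* and *Tet3* pairs gave 1.54 and 1.37, above 94.2% and 90.9% of pairs, with ES ratios of 1.03 and 0.810. The *Tet1* intron pair lay below the median ratio and the other pairs above it, the lower *Uhrf1* pair above only 58.9% of pairs. The *Uhrf1* pairs share a place, and ratios by position in genes were not computed over all pairs. No pattern by position is therefore read from these values. With 1 library each, these ratios have no error, and the part of depth in them was not tested.

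**Figure D3:**
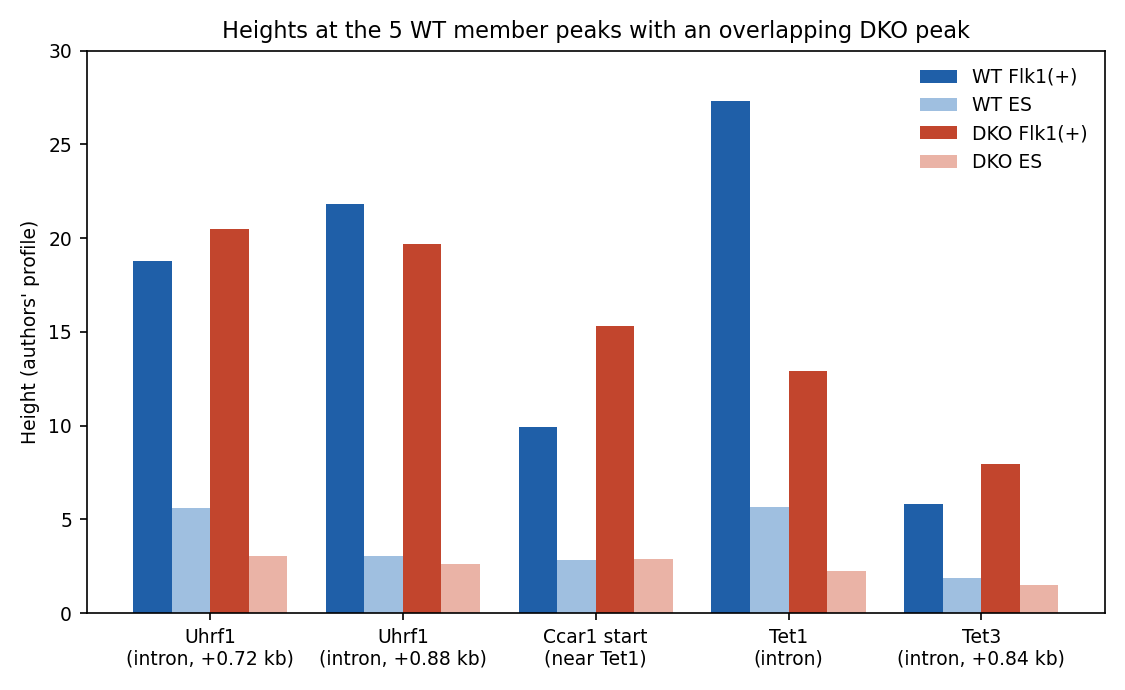
Heights in the authors' profile at the 5 WT member peaks with an overlapping DKO peak, with bars for WT Flk1(+), WT ES, DKO Flk1(+) and DKO ES, 1 library each and so without error bars. The *Tet1* intron peak stands at 27.3 in WT and 12.9 in DKO, with its ES background lower in DKO as well. The *Ccar1* and *Tet3* starts are higher in DKO. Heights are of unknown scaling, and over all pairs the DKO height was a median 0.823 times the WT height.

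CpG content and the motif were then counted in the member windows. The motif was searched as AGATAA and TGATAA on both strands. It was found in 4 of 10 WT and 8 of 25 DKO member windows, beside 61.9% of WT (61.2% to 62.6%) and 38.1% of DKO windows (37.4% to 38.7%). Some DKO member windows overlap, as at the *Tet1* intron and upstream of *Mbd2*, so the same match can be counted in more than 1. Windows centred 2 kb to either side of the peaks, not matched for CpG content, held the motif in 41.1% and 38.8%. The whole-list DKO share pools CpG-rich and CpG-poor windows, so its nearness to the flanks does not show a lack of motif enrichment. The study's own motif discovery found a GATA motif to be the most enriched in the peaks of both genotypes. In the central 200 bp 3 WT and 4 DKO member peaks had a match, beside 52.5% and 28.9% of the lists. The median CpG number was 18.5 in WT member windows (3 to 50) and 23 in DKO (2 to 50), against 8 and 21 over the lists. Windows with 30 or more CpGs made up 4 of the WT and 11 of the DKO member peaks, and 19.9% and 39.3% of the lists. Only 1 of those 15, at the *Mbd2* start, held WGATAA, where 13.0% of such WT and 9.74% of such DKO windows do. Below 30 CpGs, 4 of 6 WT and 7 of 14 DKO member peaks held it, beside 74.1% and 56.4%. In the class with 30 or more CpGs, 3 of 4 WT and 4 of 11 DKO member peaks were shared (77.0% and 44.9% of the lists), and in the other class 2 of 6 and 4 of 14 (37.8% and 45.2%).

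**Figure D4:**
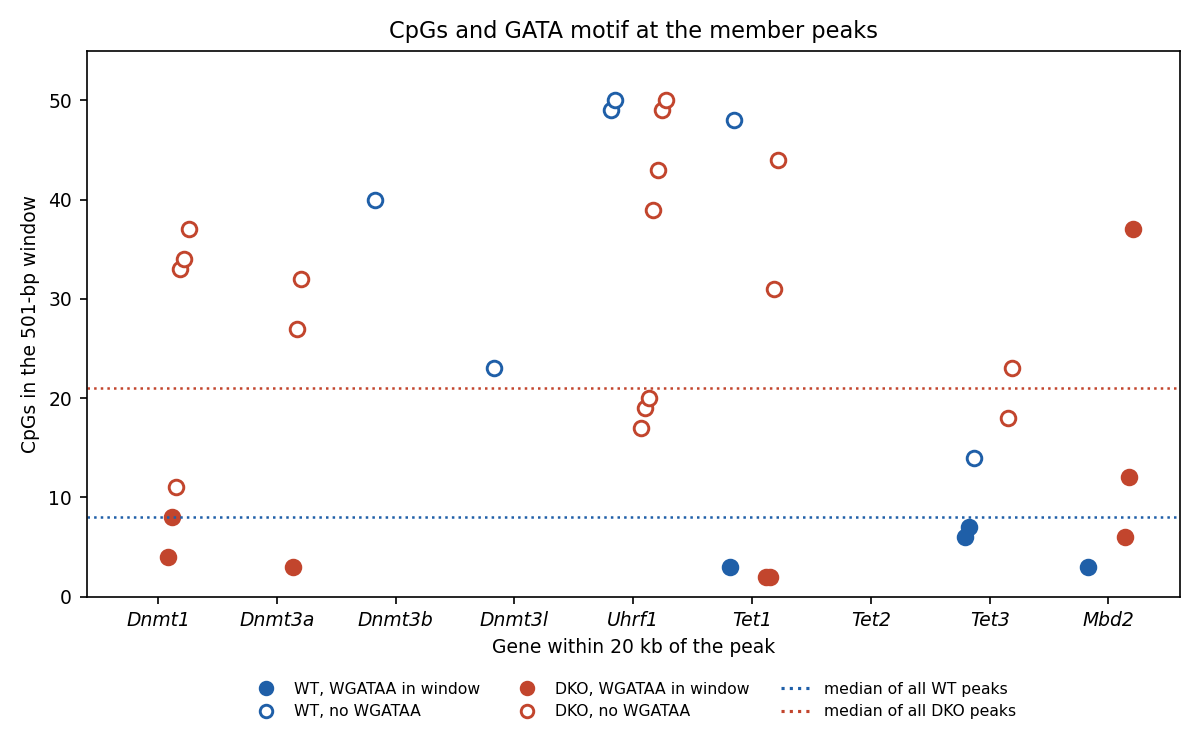
CpGs in the deposited window of each member peak (vertical axis) by gene, filled where the window holds WGATAA and open where it does not, blue for WT and red for DKO. Dotted lines are the medians of all WT peaks (8) and all DKO peaks (21). The *Uhrf1* peaks reach 50 CpGs with no match, and the filled points lie at 12 CpGs or fewer except for the *Mbd2* start peak with 37.

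Of 22 other genes of the pathway, which include further readers, base excision repair factors and cofactors, 15 had a WT and 14 a DKO peak within 5 kb, beside 39.4% and 49.1% of all genes. In 11 both lists had one, and in 4 neither. The WT list alone had one in 4 (*Uhrf2*, *Usp7*, *Zfp57* and *Ehmt2*), and the DKO list alone in 3 (*Hells*, *Tdg* and *Apex1*). Of all protein-coding genes, 31.9% had a peak in both lists, 7.52% in WT alone, 17.2% in DKO alone and 43.4% in neither. The highest peak of a pathway gene lacked WGATAA in 11 of 15 genes for WT and 12 of 14 for DKO. It held 30 or more CpGs in 10 and 11, and lay within 1 kb of the start in 10 and 9. The highest peaks of other genes were not counted in this way, so these counts have no background beside them. The 22 genes were also not matched for length. The tallest WT peak was at *Mbd3*, the NuRD subunit related to *Mbd2*, 617 bp after its start (29.9 over 6.63, 61 CpGs), and a DKO peak lay 1 bp away (23.3 over 2.52). *Mbd4* encodes a glycosylase that removes thymine from T:G mismatches. Peaks of 16.3 over 3.33 in WT and 21.8 over 5.42 in DKO lay 49 and 95 bp upstream of its start. The DKO peak was nearest *Ift122*. *Idh1*, whose product makes the 2-oxoglutarate that Tet enzymes use, had an intron WT peak of 17.1 over 5.41, at chr1:65225830, that no DKO peak overlapped, and its highest DKO peak, 7.76 over 2.51, lay in an intron nearby at 65225106. The tallest DKO peak, of 24.0 over 6.37 within 5 kb of *Apex1*, the abasic site endonuclease gene, was nearest *Tmem55b* and overlapped no WT peak. None of these held WGATAA.

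The 20-kb limit decided which peaks were counted at its edge. The furthest peaks inside were those 16785 bp from *Dnmt3b* (height 6.33), 14980 bp from *Mbd2* (7.30) and 14879 bp from *Dnmt1* (5.05). Just outside lay a DKO peak 20660 bp from *Dnmt1* (8.11), a WT peak 21414 bp from *Tet1* (8.84) and a WT peak 22977 bp from *Dnmt3l* (13.4).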

How the data were processed

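Chromatin from 4 samples was immunoprecipitated with a mix of 3 Gata4 antibodies and sequenced. Reads were mapped to mm9 by a company; the aligner and the treatment of duplicates are not given in the sources used here, and the submitters' processing notes name CASAVA 1.8.1 and cutadapt. The authors called peaks with DNAnexus (kernel density bandwidth 30, candidate threshold 5, enrichment 3 and a confident to repetitive ratio of 3), Flk1(+) against ES of the same genotype. The deposited signal is the profile height in each library, the deposited ratio is their fold enrichment with a background under 1 taken as 1, and the deposited −log10 of the q-value orders the peaks into the score. The files hold no read totals, and of the libraries only the Flk1(+) pair has totals in the study, more mapped reads for DKO. Since no column names a library, the genotype of a list was taken from the peak number that the study gives for it. Other deposited columns (position, gene name and 501-bp window) are the authors'. They were checked: 100% of windows equal mm9.

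Rows for the same peak were merged, which left 20410 of 23048 WT rows and 22733 of 27966 DKO rows. Genes, transcript starts, exons and introns came from GENCODE vM1, with introns numbered in the longest coding transcript. Repeated runs are units of 2 to 4 bases repeated 5 times or more over at least 20 bp. The design assumed start and end positions, which the lists do not hold, so the 501-bp windows stood for peaks. No test was run. Shares of lists have 95% Wilson intervals. The named genes were the 9 members, every peak within 20 kb and its nearest gene, and of 22 other pathway genes, given as counts, those with the 3 highest peaks in each list for values. The pathway genes with peaks in 1 list alone are outside this rule and were named after their values were seen. Members and lists were chosen with earlier results of these data known. Alternatives were other distances, the gene names of the list, peaks scoring above the median of their list, other overlaps, WGATAR (R is A or G) and the central 200 bp. The steps were tested on simulated data. Scripts ran in Python 3.11.15 with pandas 2.3.3, NumPy 2.4.6, Matplotlib 3.10.9 and SciPy 1.17.1.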

Additional observations from a re-analysis of the deposited data

How the results depend on the processing

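Of 26 alternative values, 17 stayed within 1.5 times the value reported and 9 moved further; the cause was not tested beyond what each setting leaves out. Within 5 kb of a transcription start site, 2 members had a WT peak in place of 4. With peaks that scored above the median of their list, 3 WT member peaks overlapped a DKO peak in place of 5, and 5 DKO member peaks overlapped a WT peak in place of 8. With positions within 100 bp, the DKO count was also 5, and with peaks within 500 bp of each other counted once, a setting chosen after seeing the data, it was 4. DKO member peaks with WGATAA numbered 4 in the central 200 bp and 5 within 5 kb of the gene, in place of 8. The median CpG number of WT member peaks was 10.5 within 5 kb in place of 18.5, and per 100 bp it was 2.25 in the central 200 bp in place of 3.69. The order of the 2 lists in CpG number, higher in DKO, held within 5 kb and in the central 200 bp. No paired analysis was possible because each condition has 1 library and no test was run. Limits are the single libraries, heights of unknown scaling from Flk1(+) libraries of unequal depth, lists of called peaks that give no value where a peak was not called, and the few member peaks behind each count.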
